A study of Rattus norvegicus with 9 samples.

Results

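The 3 genes of transforming growth factor beta (Tgfb1, Tgfb2, and Tgfb3), the genes of its 3 receptors (Tgfbr1, Tgfbr2, and Tgfbr3), and the genes of the 4 latent binding proteins (Ltbp1, Ltbp2, Ltbp3, and Ltbp4) were examined in mesenchymal stem cells of rat fat. These 10 genes were chosen by symbol from the 35362 genes of the table, and the rule uses no measured value, although the list was drawn up with earlier results of these data known. The cells came from male Sprague Dawley rats bought at the age of 6 weeks, kept for some days, and starved before the isolation. The methods name no treatment of the cells. SASCs were grown from the subcutaneous fat of the groin, PASCs from the fat around the kidney, and EASCs from the epididymal fat at the testis, and the RNA of all 3 groups was taken at passage 3. Cells were collected after digestion of the fat by their adherence to the dish, without sorting, so a group may hold more than 1 cell type. Each group has 3 samples, fewer than the replicates given in the methods, and per the methods each was taken from a culture well. Whether the wells of a group held cells of different rats is not given in the sources used here. The p-values then measure only the spread between these samples, which may be technical.

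TGF-beta is secreted as a latent complex, in which the propeptide keeps the ligand inactive and a latent binding protein fastens it to the fibrils of the extracellular matrix. Integrins or proteases release the ligand, which binds the type II receptor (Tgfbr2). This receptor then phosphorylates the type I receptor (Tgfbr1), and the type I receptor phosphorylates SMAD2 and SMAD3, while betaglycan (Tgfbr3) presents the ligand, above all TGF-beta 2. In fat, TGF-beta is known to hold back the differentiation of progenitors into adipocytes and to drive the synthesis of matrix and of contractile proteins.

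Total counts per sample lay between 17591916 and 30299032. Genes of ribosomal RNA took between 10.4% and 15.5% of the counts in SASCs, between 22.4% and 32.9% in PASCs, and between 15.9% and 40.3% in EASCs. Levels are given in CPM (counts scaled to a common library size, after TMM), and levels of different genes are compared as CPM per kilobase of the length in the table. Of all genes, 14770 passed the filter on low counts, among them all 10 members, whose lowest count in any sample was 82 (Ltbp4). A gene was counted as a DEG when its fold change exceeded 2 and its adjusted p-value was under 0.05 in edgeR's quasi-likelihood test with Benjamini-Hochberg adjustment over all genes tested. The comparisons of EASCs and of PASCs with SASCs share the SASCs samples, so their values are given side by side and are not independent of each other.

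Against SASCs, Tgfb1 and Tgfb3 were upregulated in the stem cells of both visceral depots, Tgfb3 by 14.4-fold in EASCs and by 3.90-fold in PASCs, and Tgfb2 was upregulated in EASCs. Tgfbr2 and Tgfbr3, the most abundant receptor genes in SASCs, were lower by 5.08-fold to 6.93-fold. Among the latent binders, Ltbp2 was upregulated in both depots and Ltbp4 in EASCs, while Ltbp1, Ltbp3, and, in PASCs, Ltbp4 passed the adjusted p but not the fold threshold. In bulk RNA, more cells that make an RNA and more of it in each cell cannot be told apart. In EASCs against SASCs, 6 members were upregulated DEGs (Tgfb1, Tgfb2, Tgfb3, Tgfbr1, Ltbp2, and Ltbp4), against 13.6% of all genes tested, and 2 were downregulated (Tgfbr2 and Tgfbr3), against 14.2%. In PASCs against SASCs, 3 members were upregulated DEGs (Tgfb1, Tgfb3, and Ltbp2), against 12% of all genes, and 2 were downregulated (Tgfbr2 and Tgfbr3), against 14.9%. All 10 members had an adjusted p-value under 0.05 at some fold in both comparisons, as did 69.7% of all genes in EASCs and 69.2% in PASCs, and all 10 had groups without overlap, as did 72.1% and 71.6% of all genes. The median log2 fold change of the members was 1.26 in EASCs and 0.49 in PASCs, while that of all genes was 0.01 and -0.01. With total counts in place of TMM, the medians of all genes moved to -0.39 and -0.33, and 4 of these calls ended: Tgfb1 and Tgfbr1 in EASCs, at 0.95 and 0.79, and Tgfb1 and Ltbp2 in PASCs, at 0.79 and 0.95. Ltbp1 then passed the threshold as a downregulated DEG in both comparisons, at -1.27 and -1.16, and 7 of the 10 members passed the adjusted p at some fold in PASCs, without Tgfb2 (0.095), Tgfbr1 (0.24), and Ltbp4 (0.41). With the genes of ribosomal RNA removed before scaling, every call of the 10 members was kept.

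**Figure D1:**
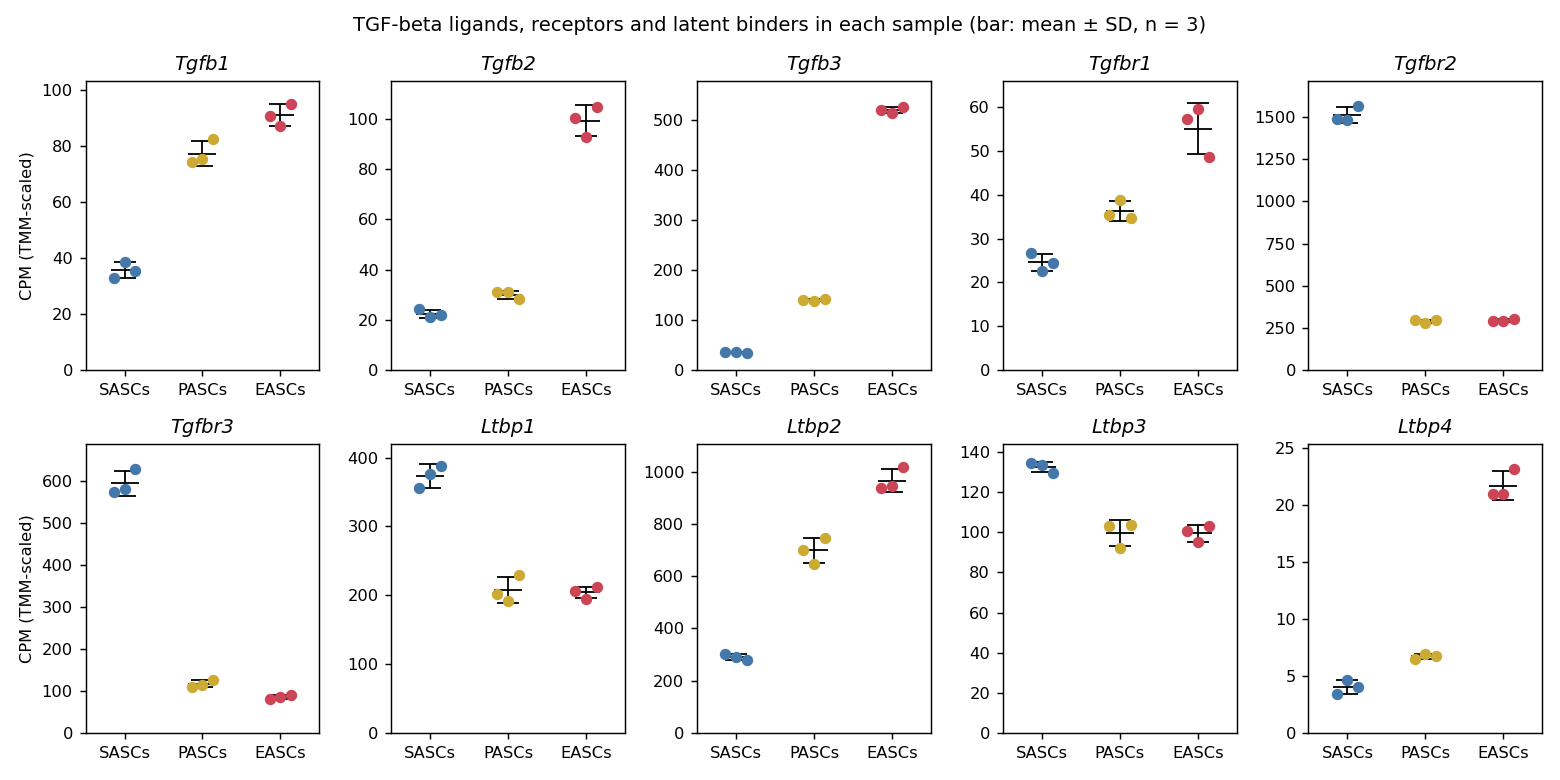
Levels of the 10 genes in each of the 9 samples, in CPM after TMM scaling on linear axes that start at 0; points are samples, the long bar is the mean and the whiskers are the SD (n = 3 each). The 3 EASCs samples of Tgfb3 sit between 513 and 526 CPM, above all PASCs samples (139 to 142) and all SASCs samples (34.95 to 36.6), while for Tgfbr2 and Tgfbr3 all SASCs samples lie above the other 6.

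Tgfb3 encodes TGF-beta 3 and lies on chromosome 6 from 109913757 to 109936217 of rn6, on the minus strand. It was at 36.6, 36.5, and 34.95 CPM in the SASCs samples, at 141.0, 139, and 142 CPM in the PASCs samples, and at 519, 513, and 526 CPM in the EASCs samples. The 3 groups were wide apart, and the samples within each group lay close together. The log2 fold change was 3.85 in EASCs (standard error 0.0579, adjusted p = 1.19e-27, edgeR) and 1.96 in PASCs (standard error 0.0557, adjusted p = 1.29e-21). Of the members, Tgfb3 had the largest change in EASCs against SASCs, and leaving out any single sample kept it between 3.83 and 3.86. The bases directly before the annotated start of Tgfb3 are shown because no other member rose as much, and they hold none of the 7 motifs searched, so no letter is in capitals.
Tgfb3, chr6:111456947-111457196, strand -: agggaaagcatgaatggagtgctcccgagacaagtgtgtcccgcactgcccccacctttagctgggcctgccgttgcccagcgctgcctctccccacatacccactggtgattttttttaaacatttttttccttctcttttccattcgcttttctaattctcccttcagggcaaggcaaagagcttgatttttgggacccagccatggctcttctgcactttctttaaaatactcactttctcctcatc

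Tgfb2, the gene of TGF-beta 2, lies on chromosome 13 from 105039639 to 105141689 (rn6, minus strand). Its samples read 24.2, 21.2, and 21.97 CPM in SASCs, 30.9, 31.0, and 28.2 CPM in PASCs, and 100.1, 92.8, and 105 CPM in EASCs. PASCs lay just above SASCs, and only EASCs stood far from the rest. The log2 fold change was 2.14 in EASCs (standard error 0.0713, adjusted p = 4.31e-20, edgeR) and 0.42 in PASCs (standard error 0.0745, adjusted p = 1.64e-05), the second below the fold threshold.

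Tgfb1 encodes TGF-beta 1, the form made by most cells, and lies on chromosome 1 from 82480875 to 82497196 (rn6, plus strand). The SASCs samples had 33.1, 38.8, and 35.3 CPM, the PASCs samples 74.3, 75.3, and 82.5 CPM, and the EASCs samples 90.9, 87.3, and 95.2 CPM. Here PASCs and EASCs were near each other and both far above SASCs. Tgfb1 was upregulated by 1.35 on the log2 scale in EASCs (standard error 0.0667, adjusted p = 3.16e-16, edgeR) and by 1.12 in PASCs (standard error 0.0670, adjusted p = 2.66e-14).

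Per length, the summed level of the 3 ligand genes was 39.7 ± 1.75 CPM per kilobase in SASCs, 101 ± 3.13 in PASCs, and 239 ± 5.79 in EASCs (SD, n = 3 each). Tgfb1 made up 61.6% ± 2.37 of this sum in SASCs, 52.3% ± 1.38 in PASCs, and 26.2% ± 0.507 in EASCs (SD, n = 3 each). The share of Tgfb3 was 27.5% ± 1.21 in SASCs, 42.0% ± 0.938 in PASCs, and 65.8% ± 0.791 in EASCs. Tgfb1 was thus the most abundant ligand RNA per length in SASCs and PASCs, and Tgfb3 in EASCs. Tgfb2 had the smallest share in every group, at 10.9% ± 1.17, 5.72% ± 0.469, and 7.99% ± 0.296. No share overlapped between any pair of groups, and the two-sided exact permutation test gave p = 0.1 for each, the smallest value that 3 samples against 3 allow. The order of the ligands depends on the division by length: by CPM without length, the share of Tgfb1 was 37.9% in SASCs and 31.2% in PASCs, and that of Tgfb3 was 38.2% and 56.7%. In EASCs, Tgfb1 (12.8%) was then below Tgfb2 (13.97%).

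**Figure D2:**
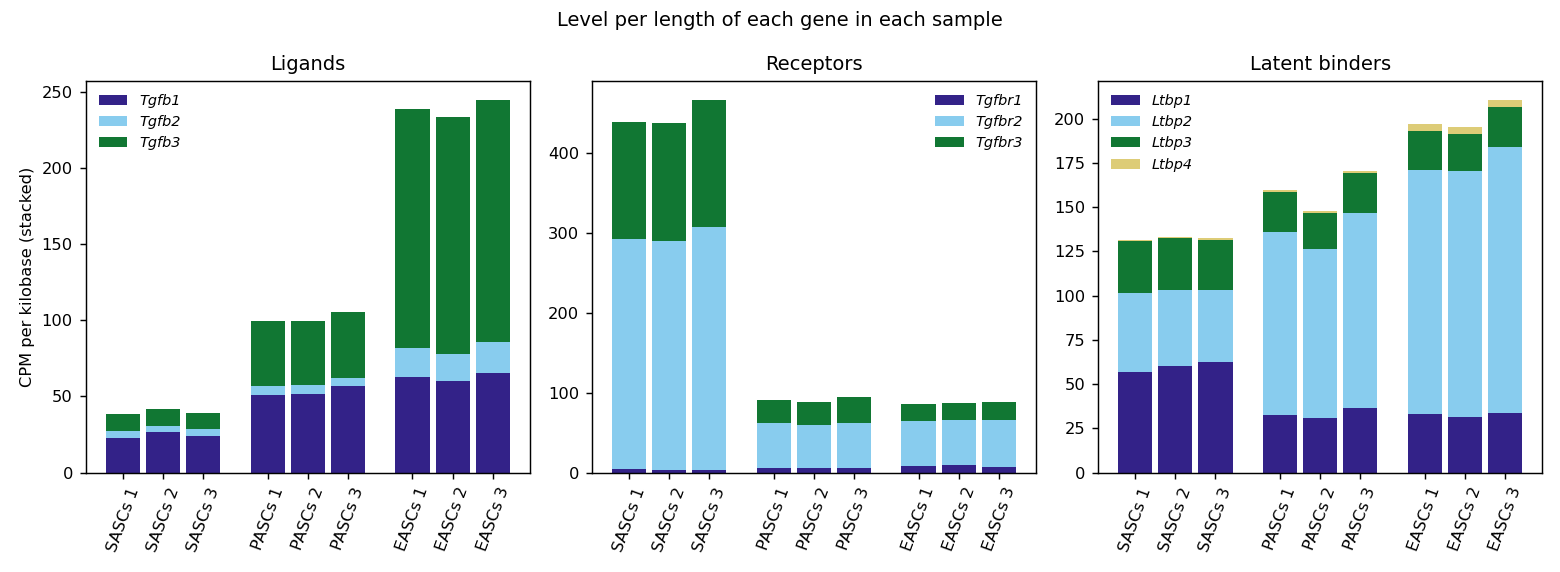
Stacked levels of the ligand, receptor, and latent binder genes in each sample, in CPM per kilobase on linear axes that start at 0 and differ between the panels. The ligand columns rise from 38.5 to 41.7 in SASCs to 233 to 245 in EASCs with Tgfb3 as the largest piece, while the receptor columns fall from 437 to 466 in SASCs to 85.1 to 88.4 in EASCs.

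Among the receptors, Tgfbr2, the type II receptor that binds the ligand first, lies on chromosome 8 from 124310288 to 124399345 (rn6, minus strand). It was read at 1489, 1479.9, and 1567 CPM in the SASCs samples, at 295, 277, and 296 CPM in the PASCs samples, and at 289, 293, and 302 CPM in the EASCs samples. All SASCs samples were far above the other 6, and PASCs and EASCs overlapped. Tgfbr2 was downregulated by 5.13-fold in EASCs (log2 fold change -2.36, standard error 0.0564, adjusted p = 2.31e-23, edgeR) and by 5.23-fold in PASCs (-2.39, standard error 0.0565, adjusted p = 2.50e-23).

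Tgfbr3, the gene of betaglycan, lies on chromosome 14 from 3506416 to 3680508 (rn6, plus strand). Its level was 573, 580.2, and 627 CPM in the SASCs samples, 110.2, 115, and 126 CPM in the PASCs samples, and 80.8, 86.3, and 89.8 CPM in the EASCs samples. SASCs were again the high group, and EASCs lay below PASCs without overlap. The log2 fold change was -2.79 in EASCs (standard error 0.0633, adjusted p = 6.98e-24, edgeR) and -2.35 in PASCs (standard error 0.0619, adjusted p = 2.71e-22). On the other strand the table places LOC103693712 and RGD1562423 within Tgfbr3, with 92 and 2 counts in all samples together, against 57396 counts of Tgfbr3.

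Tgfbr1, the type I receptor that passes the signal to the SMADs, lies on chromosome 5 from 63056079 to 63124107 (rn6, plus strand) and went the other way. The SASCs samples had 26.7, 22.7, and 24.4 CPM, the PASCs samples 35.3, 38.8, and 34.7 CPM, and the EASCs samples 57.2, 59.5, and 48.5 CPM. The groups did not overlap, and the spread in EASCs was the widest of the 3. Tgfbr1 rose by 1.16 on the log2 scale in EASCs (standard error 0.0816, adjusted p = 7.68e-13, edgeR) and by 0.56 in PASCs (standard error 0.0831, adjusted p = 1.16e-06), the second below the fold threshold.

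Per length, the level of Tgfbr2 was 79.0 ± 6.59 times that of Tgfbr1 in SASCs, 10.2 ± 0.968 times in PASCs, and 6.90 ± 0.910 times in EASCs (SD, n = 3 each). The level of Tgfbr3 was 40.9 ± 4.05, 5.44 ± 0.587, and 2.65 ± 0.407 times that of Tgfbr1. Neither ratio overlapped between any pair of groups (exact two-sided permutation p = 0.1, the smallest possible). The sum of the receptor levels was 447 ± 16.6 CPM per kilobase in SASCs, 91.1 ± 2.96 in PASCs, and 87.0 ± 1.74 in EASCs, so receptor RNA was most abundant in the group where ligand RNA was least abundant. The bases before the starts of the 2 genes that fell are shown because they moved together, with GC boxes (GGGCGG or CCGCCC) in capitals.
Tgfbr2, chr8:124761470-124761719, strand -: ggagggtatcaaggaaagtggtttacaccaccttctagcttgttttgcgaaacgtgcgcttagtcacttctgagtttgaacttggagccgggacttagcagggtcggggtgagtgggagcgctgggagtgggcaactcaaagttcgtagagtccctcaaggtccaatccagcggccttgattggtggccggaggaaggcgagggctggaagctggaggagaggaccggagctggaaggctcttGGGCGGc
Tgfbr3, chr14:2634044-2634293, strand +: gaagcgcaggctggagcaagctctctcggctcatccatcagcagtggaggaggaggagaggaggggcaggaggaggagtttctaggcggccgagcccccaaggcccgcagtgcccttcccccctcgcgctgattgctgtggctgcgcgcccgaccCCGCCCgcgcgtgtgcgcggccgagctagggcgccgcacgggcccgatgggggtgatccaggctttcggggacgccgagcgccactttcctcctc

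The latent binders differ in what they hold. LTBP1 and LTBP3 bind all 3 latent ligands, LTBP4 binds latent TGF-beta 1 weakly, and LTBP2 does not bind latent TGF-beta and is a component of microfibrils. Ltbp2, on chromosome 6 from 108500114 to 108596638 (rn6, minus strand), was at 302, 291, and 279 CPM in the SASCs samples, at 702, 648, and 745 CPM in the PASCs samples, and at 936, 945, and 1017 CPM in the EASCs samples. Its 3 groups were apart, in the order SASCs, PASCs, EASCs. Ltbp2 was upregulated by 1.73 on the log2 scale in EASCs (standard error 0.0607, adjusted p = 1.34e-19, edgeR) and by 1.27 in PASCs (standard error 0.0601, adjusted p = 1.39e-16).

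Ltbp4, on chromosome 1 from 84118046 to 84150084 (rn6, minus strand), was the least abundant member. It had 99, 109, and 82 counts in the SASCs samples, which are 3.44, 4.63, and 4.003 CPM. The PASCs samples had 6.50, 6.92, and 6.73 CPM and the EASCs samples 20.9, 21.0, and 23.2 CPM. As with Tgfb2, PASCs lay above SASCs without overlap, and nearer to SASCs than to EASCs. The log2 fold change was 2.44 in EASCs (standard error 0.122, adjusted p = 4.49e-16, edgeR) and 0.75 in PASCs (standard error 0.134, adjusted p = 1.97e-05), the second below the fold threshold.

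Ltbp1, on chromosome 6 from 21203502 to 21600441 (rn6, minus strand), was at 355, 376, and 388 CPM in the SASCs samples, at 202, 192, and 229 CPM in the PASCs samples, and at 206, 195, and 211 CPM in the EASCs samples. SASCs were the high group, and PASCs and EASCs overlapped. Ltbp1 fell by 0.87 on the log2 scale in EASCs (standard error 0.0614, adjusted p = 8.36e-13, edgeR) and by 0.85 in PASCs (standard error 0.0614, adjusted p = 1.53e-12), in both less than the fold threshold. The bases before its start are shown because it was the member with a cyclic AMP response element (TGACGTCA, in capitals), which lies 108 to 101 bases before the start and which 1.59% of all promoters hold.
Ltbp1, chr6:26177302-26177551, strand -: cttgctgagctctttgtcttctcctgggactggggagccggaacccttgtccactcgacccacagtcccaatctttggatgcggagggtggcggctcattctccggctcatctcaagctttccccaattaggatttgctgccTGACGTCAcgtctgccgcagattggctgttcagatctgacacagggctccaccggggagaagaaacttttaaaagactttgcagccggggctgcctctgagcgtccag

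Ltbp3, on chromosome 1 from 221099946 to 221116096 (rn6, plus strand), fell by less than the fold threshold in both comparisons with SASCs. Its levels were 134, 134, and 130 CPM in the SASCs samples, 103, 92.1, and 103 CPM in the PASCs samples, and 100.4, 95.01, and 103 CPM in the EASCs samples. The SASCs samples were above all others, and PASCs and EASCs shared one range. Ltbp3 fell by 0.41 on the log2 scale in EASCs (standard error 0.0576, adjusted p = 4.58e-07, edgeR) and by 0.41 in PASCs (standard error 0.0577, adjusted p = 4.35e-07).

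Per length, the summed level of the 4 binders was 132 ± 0.899 CPM per kilobase in SASCs, 159 ± 11.3 in PASCs, and 201 ± 8.55 in EASCs (SD, n = 3 each). Ltbp1 made up 45.2% ± 1.85 of this sum in SASCs, 20.9% ± 0.627 in PASCs, and 16.3% ± 0.407 in EASCs, and Ltbp2 made up 32.4% ± 1.41, 64.7% ± 0.190, and 70.9% ± 0.662. The largest share passed from Ltbp1 in SASCs to Ltbp2 in both visceral groups. Ltbp3 took 21.9% ± 0.480, 13.6% ± 0.428, and 10.8% ± 0.277, and Ltbp4 under 2% in every sample. The shares of Ltbp1 and Ltbp2 did not overlap between any pair of groups (exact two-sided permutation p = 0.1, the smallest possible). The sum includes Ltbp2, whose protein does not bind latent TGF-beta, so its rise does not stand for the genes of the ligand-binding proteins. Ltbp2 went from 42.8 CPM per kilobase in SASCs to 103 in PASCs and 143 in EASCs. Ltbp1 fell from 59.9 to 33.3 and 32.7, and Ltbp3 from 28.9 to 21.7 and 21.7. Ltbp4 rose from 0.732 to 1.22 and 3.94.

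**Figure D3:**
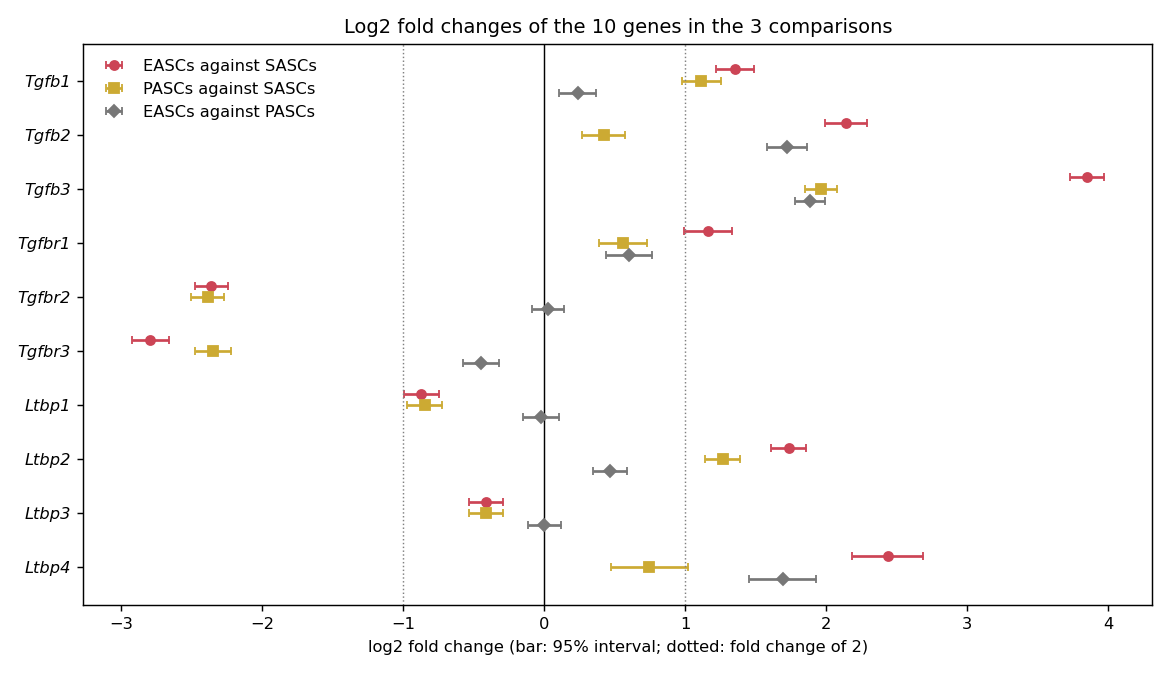
Log2 fold changes of the 10 genes in the 3 comparisons, from edgeR's fit of all 9 samples; bars are 95% intervals, and dotted lines mark a fold change of 2. Tgfb3 lies farthest to the right in EASCs against SASCs (3.85), Tgfbr2 and Tgfbr3 lie between -2.79 and -2.35 in both comparisons with SASCs, and the values of Tgfbr2, Ltbp1, and Ltbp3 between EASCs and PASCs lie on 0.

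Compared directly, EASCs and PASCs differed in 3 upregulated DEGs of the 10 members (5.19% of all genes), which were Tgfb2 (log2 fold change 1.72, standard error 0.0694, adjusted p = 4.05e-17), Tgfb3 (1.89, standard error 0.0519, adjusted p = 1.23e-20), and Ltbp4 (1.69, standard error 0.114, adjusted p = 2.44e-12, all by edgeR). The number of downregulated DEGs was 0 by edgeR and 0 by DESeq2 (2.2% of all genes), and 1 member was lower at an unadjusted p under 0.05. This member was Tgfbr3, at -0.45 (standard error 0.0616, adjusted p = 1.63e-06, edgeR). At any fold, 7 members passed the adjusted p (30.7% of all genes), and the same number had groups without overlap (41.2% of all genes). Tgfb1, Tgfbr1, and Ltbp2 were among these, higher in EASCs by 0.24, 0.60, and 0.47 on the log2 scale. No difference was detected for Tgfbr2 (0.03, 95% interval -0.09 to 0.14, adjusted p = 0.775, edgeR), Ltbp1 (-0.02, -0.15 to 0.10, adjusted p = 0.816), and Ltbp3 (0.00, -0.12 to 0.12, adjusted p = 0.990), and the sign of these 3 values changed with the processing. The median of the members was 0.35, and that of all genes was -0.01.

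The 250 bases before the annotated start of every gene in RefSeq's table for GRCr8 were searched for 7 motifs on both strands, and all 10 members were found among its 33469 promoters. These positions belong to GRCr8 and not to rn6. GC boxes (GGGCGG or CCGCCC) were present in 30.5% of all promoters and in 6 of 10 members, which were the 3 receptors, Ltbp2, Ltbp3, and Ltbp4. Tgfbr1 and Ltbp4 each held 3 of them, Tgfbr2 held 1 that ends 2 bases before the start, and Tgfbr3 held 1 from 95 to 90 bases before the start. The windows of the 3 ligands held none of the motifs. The TATA box (TATAAA or TTTATA, 12.9% of all promoters), the AP-1 site (TGACTCA or TGAGTCA, 4.05%), the TEAD site (GGAATG or CATTCC, 12.1%), the SMAD element (CAGACA or TGTCTG, 17.2%), and the palindromic SMAD element (GTCTAGAC, 0.173%) were in 0 of the 10 windows. A match is a description of these letters and says nothing about binding. The GC content of the windows ran from 48.8% in Tgfb3 to 75.6% in Tgfbr1.

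The other genes of the pathway were read from 5 lists, which hold 66 genes, of which 63 were tested (Itgb6, Foxh1, and Aspn were not) and 3 stand in more than 1 list (Smad7, Skil, and Tgif1). Of 16 genes of storage and activation, 4 were upregulated in EASCs (Itgb3, Thbs1, Itgb1, and Lrrc32) and 2 were downregulated (Mmp2 and Mmp14), which is 25% and 12.5% of the list, against 13.6% and 14.2% of all genes tested, with a list median of 0.23. In PASCs, 4 rose (Itgb3, Thbs1, Lrrc32, and Fbn2) and 4 fell (Mmp14, Mmp2, Bmp1, and Nrros), which is 25% each, against 12% and 14.9% of all genes, with a median of 0.17. With total counts in place of TMM the calls of Lrrc32 in EASCs (0.95) and Fbn2 in PASCs (0.88) ended, and that of Nrros was kept in 14 of 16 alternatives. Thbs1 encodes thrombospondin 1, which can free the ligand from its propeptide, and it stood at 2119 ± 133 CPM in SASCs, 7502 ± 885 in PASCs, and 7448 ± 458 in EASCs (SD, n = 3 each). Itgb3, an integrin subunit that binds the propeptide, was at 2.48 ± 0.194, 17.3 ± 0.452, and 21.8 ± 1.24 CPM, a log2 fold change of 3.14 in EASCs and 2.81 in PASCs. Mmp2, a gelatinase, was at 4337 ± 134, 830.0 ± 6.87, and 567 ± 18.04 CPM (log2 fold changes -2.94 in EASCs and -2.39 in PASCs), and Mmp14, the membrane protease that activates it, was at 1952 ± 82.2, 312 ± 14.7, and 501 ± 16.3 CPM (log2 fold changes -1.96 and -2.65). Fbn1, the fibrillin to which latent binders attach, had log2 fold changes of 0.03 in EASCs and -0.79 in PASCs and was no DEG in either. Mmp2 overlaps LOC102549037 on the other strand by 290 bases, and Itgb1 overlaps LOC102556297 on the same strand by 566 bases, genes with 45981 and 16106 counts in all samples together.

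Of 14 co-receptors and receptor regulators, Eng and Smurf1 were upregulated and Dab2 was downregulated in EASCs (median 0.34), and in PASCs Cd109 was upregulated and Dab2 was downregulated (median 0.22). These are 14.3% higher and 7.14% lower in EASCs and 7.14% each in PASCs, near or below the shares of all genes (13.6% and 14.2%, and 12% and 14.9%), and with total counts the calls of Smurf1 (0.69) and Cd109 (0.97) ended. Eng, the co-receptor endoglin, was at 60.0 ± 3.69 CPM in SASCs, 89.8 ± 3.20 in PASCs, and 204 ± 7.40 in EASCs, a log2 fold change of 1.77 in EASCs and 0.58 in PASCs. Dab2, an adaptor of receptor trafficking, was at 170.3 ± 15.3, 42.4 ± 3.29, and 49.7 ± 1.88 CPM (log2 fold changes -1.78 and -2.01). Smurf1, a ubiquitin ligase of receptors and SMADs, had log2 fold changes of 1.09 and 0.59, and Cd109, a co-receptor that dampens the signal, had 0.77 and 1.29.

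Of 10 SMADs and nuclear partners, Skil and Smad7 were upregulated and Smad3 was downregulated in EASCs (median 0.12), and Tgif1 was downregulated in PASCs (median 0.00). Of all genes, 13.6% were higher and 14.2% lower in EASCs and 14.9% lower in PASCs, beside 20%, 10%, and 10% of this list. Foxh1, another gene of this list, with 48 counts over all samples and an overlap with Kifc2 on the other strand, did not pass the filter on low counts. It entered the test, as a downregulated DEG in both comparisons, without that filter and in 8 of the 9 fits with 1 library left out, so counts over these fits cover 11 genes. Apart from Foxh1, Smad3 alone was downregulated in EASCs in all 9 of these fits, and 1 to 2 genes were higher. In PASCs, the call of Tgif1 ended without SASCs replicate 1 and without PASCs replicate 2, Smad3 was downregulated as well without PASCs replicate 1, and Tgif2 was upregulated without SASCs replicate 2 and without PASCs replicate 2. With total counts, 0 were higher in EASCs, and Smad3 and Tgif1 were lower in both comparisons. Smad3, which carries the signal to the nucleus, was at 107 ± 3.60 CPM in SASCs, 54.4 ± 3.09 in PASCs, and 52.0 ± 1.23 in EASCs, with log2 fold changes of -1.04 in EASCs and -0.97 in PASCs, the second just short of the threshold. Its partner Smad2 had log2 fold changes of 0.33 and 0.33, and the common Smad4 had -0.10 and -0.34, so neither was a DEG. Smad7, the inhibitory SMAD and itself a target, was at 23.9 ± 0.198, 24.9 ± 1.94, and 47.8 ± 3.60 CPM, and its log2 fold change of 1.00 in EASCs lay on the threshold. The call of Smad7 was kept in 8 of 16 alternatives at a fold of 2, with values between 0.60 and 1.06. Skil, a repressor of the SMADs, had log2 fold changes of 1.17 and 0.81, and its call in EASCs ended with total counts (0.79). Tgif1, a nuclear corepressor, had log2 fold changes of -0.63 and -1.04, and its call in PASCs was kept in 14 of 16 alternatives.

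Of 5 secreted binders, Dcn was downregulated in both comparisons and Fmod was upregulated in EASCs, with list medians of -0.36 and -0.07. Each call is 20% of this list, beside 13.6% of all genes higher and 14.2% lower in EASCs and 14.9% lower in PASCs. Dcn encodes decorin, a proteoglycan that binds the ligand, and fell from 6879.8 ± 155 CPM in SASCs and reached 218 ± 10.7 in PASCs and 301 ± 16.6 in EASCs, a log2 fold change of -4.98 in PASCs and -4.52 in EASCs. Fmod, the proteoglycan fibromodulin, was at 7.71 ± 0.750, 8.39 ± 1.38, and 35.4 ± 2.23 CPM. Fmod was high in EASCs and near the level of SASCs in PASCs, with log2 fold changes of 2.21 and 0.12. Tgfb2 and Ltbp4 were also highest in EASCs, but in PASCs they lay above SASCs, by 0.42 and 0.75 on the log2 scale.

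Target genes of TGF-beta did not move as one. Of 21 genes, 8 were upregulated DEGs in EASCs (Cnn1, Tagln, Acta2, Pmepa1, Ctgf, Nedd9, Skil, and Smad7) and 3 were downregulated (Tgfbi, Cdkn2b, and Junb), which is 38.1% and 14.3% of the list, against 13.6% and 14.2% of all genes, with a median of 0.82. In PASCs, 7 rose (Cnn1, Tagln, Acta2, Pmepa1, Ctgf, Nedd9, and Postn) and 5 fell (Tgfbi, Junb, Timp3, Tgif1, and Cdkn2b), which is 33.3% and 23.8%, against 12% and 14.9% of all genes, with a median of 0.66. The number lower in PASCs was 3 without SASCs replicate 1 or without PASCs replicate 2. With total counts the calls of Skil and Smad7 in EASCs and of Nedd9 (0.76) and Postn (0.75) in PASCs ended. Ctgf, the gene of connective tissue growth factor, rose from 372 ± 21.7 CPM in SASCs and reached 2476 ± 184 in PASCs and 3597 ± 140 in EASCs. Acta2 is near-identical to other actin genes, with which the counting could have shared its reads. The contractile genes Cnn1 and Tagln had the largest values, with log2 fold changes of 6.99 and 5.59 in EASCs and 5.43 and 4.67 in PASCs. Tgfbi, a matrix protein named for its induction by TGF-beta, fell from 154 ± 5.94 to 26.1 ± 0.489 and 9.02 ± 1.03 CPM. Junb, an immediate early transcription factor, had log2 fold changes of -1.96 in EASCs and -1.64 in PASCs, and Cdkn2b, an inhibitor of the cell cycle, had -2.24 and -1.004. The second lay on the threshold, and its call was kept in 12 of 16 alternatives, with values between -1.32 and -0.93. These lists were described by their counts and medians and not tested as sets.

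**Figure D4:**
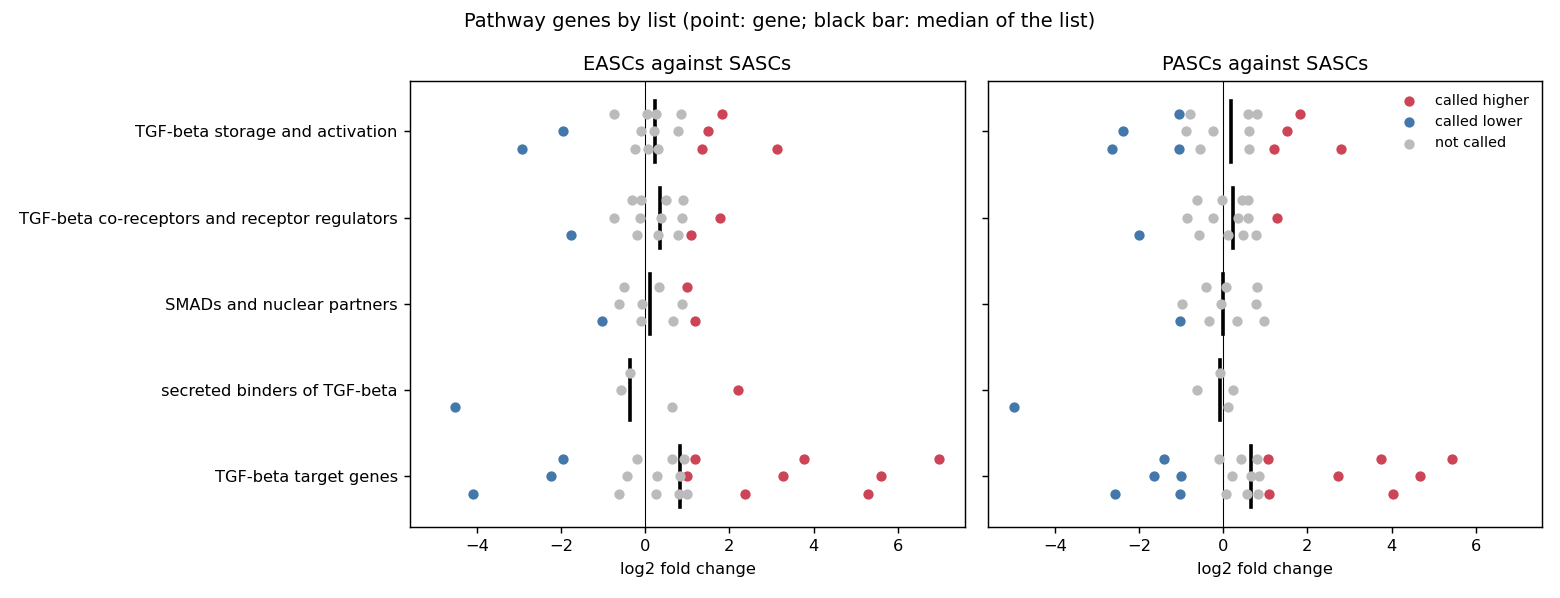
Log2 fold changes of the pathway genes in EASCs and in PASCs against SASCs, 1 point for each gene and a black bar for the median of each list. In EASCs the target genes run from -4.10 to 6.99 around a median of 0.82, and the secreted binders from -4.52 to 2.21 around -0.36.

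Between EASCs and PASCs, Nrros and Fn1 of the storage genes, Bambi and Eng of the co-receptors, Fmod of the binders, and Timp3, Cnn1, Acta2, and Nedd9 of the targets were upregulated (5.19% of all genes), and Tgfbi, Postn, and Cdkn2b of the targets were downregulated (2.2% of all genes). The call of Fn1 ended with total counts, at 0.996. Nrros (3.31 CPM in EASCs and 1.29 in PASCs) and Bambi (4.44 and 1.89 CPM) were at a few CPM, where precision is limited. Both calls were kept in 16 of 16 alternatives. The list medians lay between 0.04 and 0.40.

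Markers of other cell types moved with the groups. All 7 markers of mesenchymal stem cells had at least 1 CPM in every group, with sums between 4135 and 4262 CPM in SASCs, between 3784 and 3959.9 in PASCs, and between 4958 and 5027 in EASCs, although Itgb1 and Eng stand both there and in the pathway lists. Within this list the genes moved in opposite ways: Pdgfra was at 1543 CPM in SASCs, 278 in PASCs, and 235 in EASCs, and Itgb1 at 1046, 1814, and 2951 CPM. The 9 mesothelial markers summed to values between 20.01 and 21.6 CPM in SASCs, between 98.9 and 106 in PASCs, and between 132 and 143 in EASCs, with Krt18 at 0 in SASCs and Krt19 at 0 in PASCs, and 5, 6, and 7 of them had at least 1 CPM. The 6 markers of smooth muscle and pericytes summed to 83.9 to 89.4, 326 to 342, and 701 to 741 CPM, with Rgs5, a pericyte marker, under 1 CPM on average in PASCs and EASCs. The 7 leukocyte and macrophage markers summed to 50.1 to 53.8, 119 to 125, and 173 to 184 CPM, with Ptprc at 1.02, 1.62, and 3.06 CPM. Mlana, a melanocyte gene, was at 8.79, 0.0125, and 0 CPM on average. The 4 adipocyte markers summed to 55.3 to 60.7, 13.5 to 14.4, and 5.64 to 6.20 CPM, and the 6 endothelial markers to 44.3 to 46.0, 11.7 to 14.6, and 30.5 to 33.1 CPM. Of the 4 skeletal muscle markers, Des alone, which the smooth muscle list also holds, had at least 1 CPM in any group (10.98, 27.9, and 193 CPM on average, counted in both sums), and Myog and Myf5 were at 0 in all groups, and the sums were 10.5 to 11.6, 27.6 to 29.5, and 183 to 198 CPM. The 4 epithelial markers summed to under 2.28 CPM in every sample, with Krt14 at 0 in SASCs, Krt5 in PASCs, and Cdh1 and Krt5 in EASCs. The sums of the mesothelial, smooth muscle, and leukocyte markers had the order SASCs, PASCs, EASCs, as did Tgfb1, Tgfb2, Tgfb3, Tgfbr1, Ltbp2, and Ltbp4. The sum of the adipocyte markers and the single gene Mlana had the reverse order, as did Tgfbr3. Lep, 1 of the 4 adipocyte markers, went the other way, at 0.0515, 0.0748, and 0.200 CPM on average. The part of these cell types in the values of the members was not tested.

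Over the 9 samples, the genes whose log2 CPM was most like that of each ligand were named as a description. For Tgfb3 they were Il15 (Pearson's r = 0.9993), Mfge8 (0.9991), and Lmcd1 (0.999). For Tgfb2 they were Sult1d1 (0.9973), Edn1 (0.9958), and Porcn (0.9949), with Sult1d1 at or under 0.0808 CPM on average in SASCs and PASCs. For Tgfb1 they were Mbnl3 (0.9974), Nomo1 (0.9969), and Plekhg3 (0.9967). The points share the 3 groups and the libraries.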

How the data were processed

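RNA of 9 samples was sequenced, 3 each of SASCs, PASCs, and EASCs, assigned to groups and numbers by their labels. The authors trimmed paired-end reads with cutadapt and FastX-Toolkit, aligned them with TopHat to rn6 (the submitters' processing notes list rn5, and the scaffold names of the table are those of rn6), and deposited raw read counts per gene. The counting tool, the use of strand, and the treatment of reads matching several genes are not given in the sources used here. Reads on the 45S rRNA gene were also counted for the 18S, 28S, and 5.8S genes within it, whose counts sum to 99.9% of its own. Metabolite data were not analysed here.

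From the deposited counts, edgeR 4.0.16 in R 4.3.3 fitted all 9 samples jointly, with the 3 groups as the single factor and no block, after filterByExpr (14770 of 35362 genes) and TMM (factors 0.740 to 1.23). The common biological coefficient of variation was 0.0685. P-values of the quasi-likelihood test were adjusted by Benjamini-Hochberg within each comparison. The standard error is the log2 fold change divided by the square root of F, and 95% intervals use the total degrees of freedom of the fit. CPM per kilobase uses the length in the table. Replicates differed by more than counting noise (chi-square per degree of freedom at least 6.28), so no sample was taken for a copy of another. Total counts of 17591916 to 30299032 per sample limit the precision of genes at a few CPM. The fit was tested on simulated counts.

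The members and lists were chosen with earlier results of these data known. Named were all members, the genes that overlap them, the 2 genes of each list with the largest rise and fall among DEGs of each comparison with SASCs, 10 core genes of the pathway, and the 3 genes most correlated with each ligand over 9 samples (log2 CPM, prior count 2). All other called genes of the lists are named as well. Some items that these rules select are not reported here. Sequences are from RefSeq, GRCr8. Alternatives were DESeq2 1.42.0, RLE factors, total counts without TMM, no filter, fitting only the 2 groups compared, blocking on the replicate number, removal of rRNA genes, a fold threshold of 1.5, and leaving out each sample in turn.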

Additional observations from a re-analysis of the deposited data

How the results depend on the processing

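Of 480 recomputed fold changes of the 10 members, 464 kept their direction and their side of the threshold, 4 lost the DEG call, 2 gained it, and 10 changed sign, the last all between EASCs and PASCs for Tgfbr2, Ltbp1, and Ltbp3. With total counts in place of TMM, 1 member (Tgfb3) was an upregulated DEG in PASCs in place of 3, and 3426 of all genes were downregulated in EASCs in place of 2103, while the median of all genes moved to -0.39 in EASCs, -0.33 in PASCs, and -0.08 between them. The changed signs were Tgfbr2 at -0.049 with total counts and -0.0052 without PASCs replicate 2, and Ltbp1 at 0.052 without PASCs replicate 3 and 0.0071 without EASCs replicate 2. Ltbp3 was at -0.0028 with DESeq2, -0.0029 with RLE factors, -0.080 with total counts, -0.053 without PASCs replicate 2, -0.0047 without EASCs replicate 1, and -0.021 without EASCs replicate 3. With any 1 sample left out, the values ran from -0.0052 to 0.042 for Tgfbr2, from -0.077 to 0.052 for Ltbp1, and from -0.053 to 0.034 for Ltbp3. The adjusted p of the values that changed sign was at least 0.562 (edgeR and DESeq2).

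At a fold threshold of 1.5, the upregulated pathway genes numbered 28 in EASCs, 24 in PASCs, and 14 between them (15, 12, and 9 at a fold of 2), and 17 in place of 11 were downregulated in PASCs. Of all genes, 3146, 3066, and 1241 were then upregulated and 3268, 3339, and 704 downregulated. By CPM without length, the shares in SASCs, PASCs, and EASCs were 37.9%, 31.2%, and 12.8% for Tgfb1, 23.9%, 12.1%, and 13.97% for Tgfb2, and 38.2%, 56.7%, and 73.2% for Tgfb3.

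With each sample left out in turn, the counts of member DEGs were unchanged in all 3 comparisons. Samples with the same replicate number did not deviate together (correlations of -0.0348 to 0.0380 for 9 pairs, and -0.0666 to 0.0674 for other pairs). Under the replicate block, the member DEGs stayed at 6 higher and 2 lower in EASCs, 3 and 2 in PASCs, and 3 and 0 between them, and those of all genes numbered 1981 and 2080, 1764 and 2180, and 748 and 319. Of 510 recomputed counts of single lists, 455 were within 1.5 times the reported count. Of the members, Ltbp4 had the fewest counts and the widest intervals.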
